A study of Mus musculus with 2 samples.

Results

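Open chromatin was described at 42 mouse genes of cilium assembly and of the RFX transcription factor family, out of 21938 protein-coding genes of GENCODE M21 on chromosomes 1 to 19, X and Y. The genes were listed by name, and the list was drawn up with earlier results of these data known, though no measured value entered the rule. They fall into 25 primary-cilium genes, 11 motile-cilium genes and 6 RFX genes. Dnai1 and Dnai2 carry the symbols Dnaic1 and Dnaic2 in GENCODE M21 and were matched through RefSeq synonyms, and the other 40 were matched by symbol. The data are DNase-seq, in which nuclei are cut with the nuclease DNase I so that accessible DNA is released and sequenced. The tissue was midbrain of healthy newborn B6NCrl mice (age 0 days, males and females pooled), with 1 group of 2 biological replicates, no treatment and no second genotype, prepared with a protocol whose name mentions crosslinking. Both libraries trace to a single pooled donor entry, so the spread between them may be partly technical. With 1 group there is no contrast to test, and all comparisons are given as counts and values in each library.

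The cilium is a microtubule-based projection of the cell surface. Its primary form, an immotile single antenna, is carried by neural progenitors, neurons and astrocytes and is required for Hedgehog signalling. Motile cilia occur in the brain on ependymal cells, which line the ventricles and differentiate around birth, and on choroid plexus cells. Both forms are built by intraflagellar transport (IFT), in which protein trains are carried outward by kinesin motors and back by dynein motors, while the BBSome acts as a cargo adaptor for membrane proteins. Motile cilia in addition need axonemal dynein arms, radial spokes and a central pair. RFX proteins bind an inverted-repeat DNA element, the X-box, which is known from the promoters of many cilium genes.

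The libraries differed in yield. Replicate 1 had 228203 usable peaks and replicate 2 had 122593, each peak 150 bp wide with a whole-number signal assigned by the authors, and the first list was 1.86 times as long. Read depth is unknown, and the signals were not scaled between libraries, so each is read only within its own list. Overlapping or touching peaks were merged into regions, and a region with a peak of each library is called replicated. Over all protein-coding genes, 61% had a replicated region within 500 bp of a transcription start site (TSS). Of the markers of the labelled tissue, 8 of 10 midbrain and neuron genes had one, all but Gata3 and Pax7, against 0 of 3 forebrain, 0 of 3 trunk Hox and 0 of 5 sperm genes. Of 7 ependymal and multiciliated markers 5 were open, near the share of all genes, and of 5 choroid plexus markers 1 was (Folr1).

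At promoters, 39 of the 42 genes had a replicated region within 500 bp of a TSS, where 61% of all protein-coding genes had one. All 25 primary-cilium genes, all 6 RFX genes and 8 of the 11 motile-cilium genes were among them. The 3 exceptions were Dnah2, Dnah5 and Spag6, which encode parts of the motile axoneme. Counting only principal TSSs, the starts of the transcripts that GENCODE marks as principal, the count was again 39 (56.6% of all genes). In replicate 1 alone all 42 genes had a promoter peak (68.9% of all genes), and in replicate 2 alone 40 had one (62.6% of all genes). None of the 42 lacked a peak in both libraries, as 30.4% of all genes did. Hotspots, the authors' wider intervals, gave the same counts, with 42 promoters covered in replicate 1 (69.1% of all genes) and 40 in replicate 2 (62.8%). The difference between primary and motile genes was not tested. The 61% covers promoters of every base composition, which is taken up below.

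**Figure D1:**
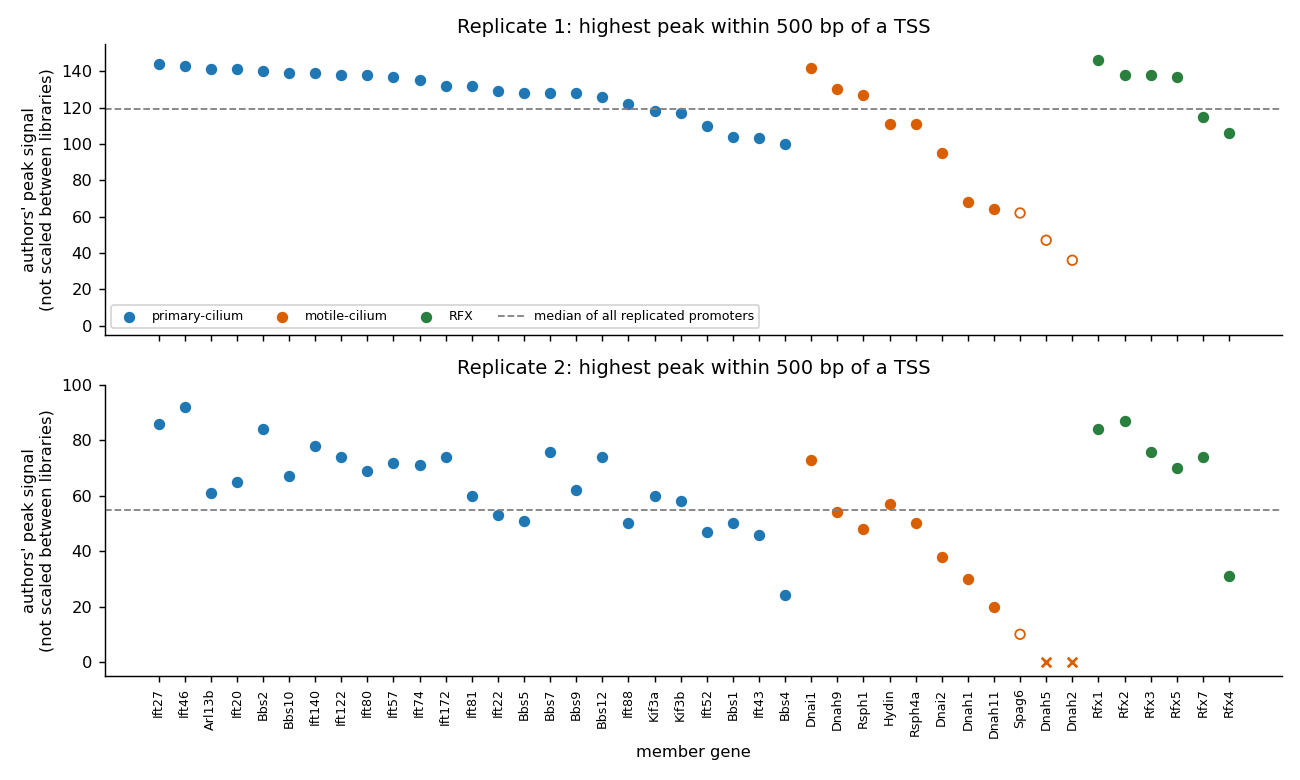
Highest promoter peak signal of each member gene (vertical axis, the authors' units) in replicate 1 (top) and replicate 2 (bottom); filled points have a replicated region, open points have a peak without one, crosses mark no peak, and the dashed line is the median of all genes with a replicated promoter region. The primary-cilium genes lie between 100 and 144 in replicate 1, and the motile-cilium genes spread down to 36.

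Most primary-cilium promoters were above the middle of all open promoters. Their highest peak within 500 bp of a TSS had a median signal of 132 in replicate 1 (range 100 to 144) and 65 in replicate 2 (24 to 92). All genes with a replicated promoter region had medians of 119 and 55 (quartiles 98 and 131, and 38 and 68). Of the 25 genes, 19 lay above that median in replicate 1 and 18 in replicate 2, as the plot of promoter signals shows.

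Among IFT genes, Ift46, a subunit of the complex IFT-B that drives outward transport, had signals of 143 in replicate 1 and 92 in replicate 2. These placed it at percentiles 97.8 and 99.8 of all genes with a promoter peak in the respective library. Ift27, a small GTPase of the same complex, had 144 and 86. Both stood near the top of each list. The subunits of the return complex IFT-A, Ift140 (139 and 78) and Ift122 (138 and 74), followed. Other IFT promoters with signals of 129 to 141 in replicate 1 were Ift20, Ift22, Ift57, Ift74, Ift80, Ift81 and Ift172, with 53 to 74 in replicate 2.

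At the lower end of the IFT family, Ift88, an IFT-B subunit whose loss abolishes cilia, had 122 and 50. Ift52, another IFT-B subunit, had 110 and 47, and Ift43, of IFT-A, had 103 and 46. These 3 lay below the median of all open promoters in replicate 2, and only Ift88 lay above it in replicate 1. They were nevertheless replicated in both lists, at percentiles between 36.6 and 60.8.

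The BBSome genes spanned a wider range. Bbs2, a BBSome subunit, had 140 and 84, and its strongest region (chromosome 8, 94098416 to 94098565, mm10) was centred 437 bp downstream of the nearest annotated TSS. Bbs4, also a subunit, had the lowest promoter signals of all primary-cilium genes, 100 and 24, at percentiles 35.1 and 11.8. Bbs1 had 104 and 50. The subunit genes Bbs5, Bbs7 and Bbs9 each had 128 in replicate 1, with 51, 76 and 62 in replicate 2. The genes of the chaperonin-like assembly factors Bbs10 (139 and 67) and Bbs12 (126 and 74) lay above the median of open promoters in both libraries.

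The anterograde motor subunits Kif3a (118 and 60) and Kif3b (117 and 58) had nearly the same signals in each library, close to the medians of open promoters. Arl13b, a GTPase of the ciliary membrane, had 141 and 61. Its replicate 1 signal was among the 4 highest of the primary-cilium genes, whereas its replicate 2 signal was near the middle of their range.

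The motile-cilium promoters covered almost the whole scale. Their 8 replicated promoters had median signals of 111 in replicate 1 (64 to 142) and 49 in replicate 2 (20 to 73), below the medians of all open promoters. In bulk tissue, fewer cells with an open site and a less open site in each cell cannot be told apart. The spread was as wide within a single structural family as between families, as the following values show.

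Among outer dynein arm genes, the intermediate chain gene Dnai1 had 142 and 73, the highest motile-cilium values in both libraries. Its promoter lies 237 bp from the oppositely directed TSS of the protein-coding gene Fam219a, so its region cannot be assigned to Dnai1 alone. The other intermediate chain gene, Dnai2, had highest peaks of 95 and 38, which came from different sites. At its principal TSS it had 95 and 29, and near an internal TSS 80 and 38. Of the heavy chain genes, Dnah9 had 130 and 54, and Dnah11 had 64 and 20. Dnah5 (chromosome 15, 28203752 to 28472052) had a peak of 47 in replicate 1, centred at -401 bp from its TSS (negative is upstream), and none in replicate 2. Thus the 3 outer arm heavy chain genes ranged from above the median of open promoters in replicate 1 to no peak in replicate 2.

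The inner arm heavy chain gene Dnah1 had promoter signals of 68 and 30, taken near an internal TSS. At its principal TSS it had 45 and 15, in peaks that overlapped. Dnah2 (chromosome 11, 69420809 to 69549110), also of the inner arm, had a peak of 36 in replicate 1, centred at -301 bp, and none in replicate 2. A promoter peak in replicate 1 alone was found at 6.99% of all genes.

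The radial spoke head genes Rsph1 (127 and 48) and Rsph4a (111 and 50) both had replicated promoters. Hydin, which encodes a central pair protein, had 111 and 57, close to the medians of all open promoters. Spag6, another central pair gene, had a peak of 62 in replicate 1 and of 10 in replicate 2, whose midpoints lay at 119 and -181 bp from the nearest TSS and which did not overlap. Its paralogue Spag6l is a close copy, and reads shared between them could have been lost or split, so the Spag6 values are uncertain. Spag6l itself had a replicated promoter, with 90 and 40.

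All 6 RFX promoters were replicated, with median signals of 137.5 and 75. Rfx1 (146 and 84) stood at percentiles 99.7 and 98.1, above every primary-cilium gene in replicate 1. Rfx2 (138 and 87) and Rfx3 (138 and 76), both known as regulators of ciliogenesis, lay at percentile 90.5 in replicate 1 and at 99.1 and 90.7 in replicate 2. Rfx5, a subunit of the factor that activates MHC class II genes, had 137 and 70. Rfx7 had highest peaks of 115 and 74 within its promoter window, which came from different sites. Close to its principal TSS it had 115 and 46. Its region centred at -549 bp had 135 and 74, with the replicate 1 peak outside the window. Rfx4, a gene required for neural tube development, was the weakest of these 6, with 106 and 31 (percentiles 40.3 and 18.95).

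The promoter regions did not sit at the same distance from the TSS. Their midpoints lay a median of 36 bp from the nearest TSS for primary-cilium genes and 64 bp for motile-cilium genes, against 57 bp for all genes with a replicated promoter region. For RFX genes the median was 165.5 bp. The strongest regions of Rfx2, Rfx3 and Rfx7 were centred at -208, -435 and -549 bp. Region widths had a median of 170 bp, the same as in all genes, and the widest was that of Ift52, 350 bp.

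Base composition around the TSS differed between the classes in the same order as the promoter signals. The ratio of observed to expected CpG in 1000 bp about the principal TSS had a median of 0.572 over all protein-coding genes. It was 0.851 for RFX genes, 0.709 for primary-cilium genes (0.56 to 0.978) and 0.498 for motile-cilium genes (0.193 to 0.742). All primary-cilium genes fell into deciles 5 to 10 of this ratio over all genes, and all RFX genes into deciles 6 to 10. In these deciles 71.6% (decile 5), 86.6% (decile 6) and up to 96.3% (decile 10) of all promoters had a replicated region, above the 61% of all genes. Dnah2 had the lowest value, 0.193, in the third decile of all genes, where 18.6% of promoters had a replicated region. Rsph4a (0.401), Dnah1 (0.409) and Dnah5 (0.415) fell into the fourth decile, where 41.6% were open, and Rsph4a and Dnah1 were. Spag6 had a ratio of 0.742 at its principal TSS, in the seventh decile, where 90.7% of genes had a replicated region near any TSS. It had no replicated region near any TSS, and no peak near the principal one. Its peaks lay at a TSS 4971 bp away, where the ratio was 0.766. The strongest Dnah1 region was likewise at another TSS, 54385 bp from the principal one, with a ratio of 0.412. Both genes thus had similar ratios at either start. The part of CpG content in the difference between the classes was not tested.

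**Figure D2:**
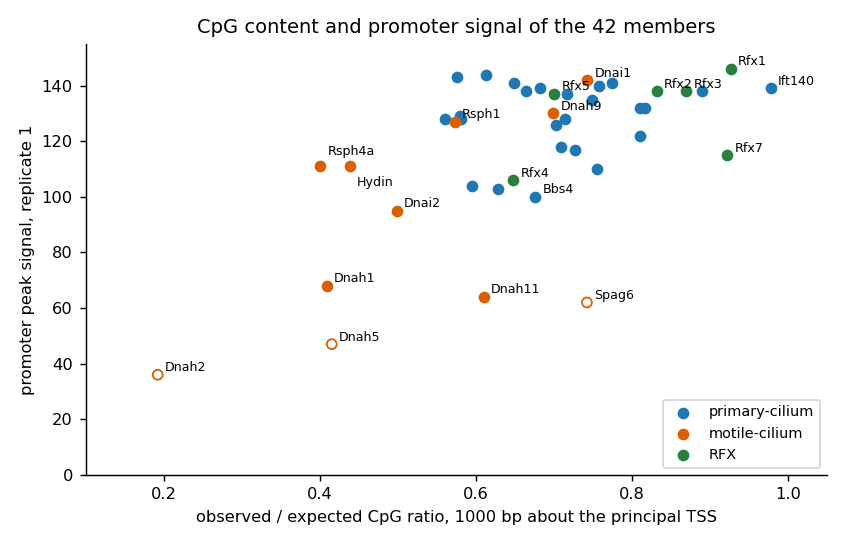
Highest promoter peak signal in replicate 1 (vertical axis, the authors' units) against the observed to expected CpG ratio (horizontal axis) for the 42 genes; filled points have a replicated promoter region and open points do not. Dnah2 is lowest on both axes, and Dnah11 and Spag6 have low signals (64 and 62) at ratios of 0.610 and 0.742. For Spag6 and Dnah1 the signal comes from a TSS other than the principal one, at which the ratio is taken.

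Head-to-head promoters were found at 10 of the 42 genes, which had an oppositely directed TSS of another gene within 1000 bp upstream of the principal TSS, against 14.2% of all protein-coding genes and 20.9% of those with a replicated promoter region. For 6 of the 42 the partner was protein-coding (9.18% of all genes). These partners were Tnfaip1 for Ift20 (29 bp apart), Cetn4 for Bbs12 (108 bp), Mbd4 for Ift122 (159 bp), Smc4 for Ift80 (168 bp), Fam219a for Dnai1 and Cramp1l for Ift140 (603 bp). Cetn4 encodes a centrin, a protein of centrioles and basal bodies. For Rfx7, Ift27, Kif3a and Dnah1 the partner was a noncoding gene. At such promoters an open region near both starts cannot be assigned to either gene alone.

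The X-box was then searched in the promoter regions, as the arms GTTNCC and GGNAAC with 2 bases of any kind between them, which reads the same on both strands and has 10 fixed bases. The search covered 300 bp about the midpoint of the strongest replicated promoter region of each gene. With up to 2 mismatches, 19 of the 39 genes (48.7%) had a match, against 16.2% of all 13391 genes with a replicated promoter region. With up to 1 mismatch it was 7 of 39 (17.9%, against 4.17%), and with none it was 1, the promoter of Bbs7 (2.56%, against 0.889%). The 7 closest matches are shown in the orientation of the gene, because they bear the element that RFX proteins are known to bind. Capitals mark the 14 bases of the match, and coordinates are those of mm10, with the sequence from the RefSeq copy of GRCm38.p6.
Bbs7 (chr3:36613489-36613518, minus strand): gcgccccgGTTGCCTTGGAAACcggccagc
Bbs1 (chr19:4906605-4906634, minus strand): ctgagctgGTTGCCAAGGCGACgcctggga
Bbs4 (chr9:59353464-59353493, minus strand): ctcagctgGTCGCCCGGGAAACggtcggct
Ift172 (chr5:31291051-31291080, minus strand): cttggcggGTTGTCCAGGTAACcacgggag
Ift22 (chr5:136908079-136908108, plus strand): ctgtcaggGTTTCCTGGGCTACtgcgcagc
Ift57 (chr16:49699199-49699228, plus strand): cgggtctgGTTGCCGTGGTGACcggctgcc
Hydin (chr8:110266948-110266977, plus strand): actctgcgGTTGCTGTGGCAACagatggta

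The element was centred at -27 bp from the nearest TSS at Bbs7 and Ift172, at -19 bp at Ift57, at -14 bp at Hydin, at -56 bp at Ift22, at 0 bp at Bbs1 and at 29 bp at Bbs4. The Ift172 element lay outside the replicated region but within the window, and the Ift22 window held another match with 1 mismatch. Of all 19 matches, 17 (89.5%) were centred within 100 bp of a TSS, with a median distance of 27 bp. Of the 2174 matches at all open promoters, 59.7% were, with a median of 77 bp. The search window itself lies close to a TSS, and the difference was not tested. Inside the replicated region itself lay 14 of the 19 (73.7%), against 62.4% of matches at all open promoters. Strong and weak promoters were found on both sides. The 19 promoters with a match had signals of 64 to 146 in replicate 1 (median 128) and 20 to 84 in replicate 2 (median 54), among them Rfx1, with 146 and 84, and Bbs4, with 100 and 24. The 20 without one had 68 to 144 (median 133.5) and 30 to 92 (median 68), among them Ift46, Ift27, Bbs2 and Ift122. The ranges overlapped almost wholly in both libraries.

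By class, 10 of 25 primary-cilium, 6 of 8 motile-cilium and 3 of 6 RFX promoter regions had a match with up to 2 mismatches. Those with exactly 2 were Ift52, Ift140, Bbs5 and Arl13b, the dynein genes Dnai1, Dnai2, Dnah9 and Dnah11, the spoke gene Rsph4a, and Rfx1, Rfx4 and Rfx5. No RFX promoter region had a match with up to 1 mismatch. The hexamer GTTGCC, searched on both strands, occurred in 18 of the 39 regions (46.2%, against 14.5% of all open promoters). It overlaps the X-box, and 6 of the 39 held it without an X-box match of up to 2 mismatches (8.75% of all open promoters). The element CCAAT, bound by the factor NFY, was in 24 of the 39 on either strand (61.5%, against 39.6%). The ETS element CCGGAAG was in 5 (19.2% of all open promoters). The consensus of the SP and KLF factors was in 11 (22.4%) and the cyclic AMP response element in 2 (3.97%). The consensus elements of NRF1 (2.21% of all open promoters) and YY1 (2.58%) were in 0 of the 39 windows, which says only that these letters are not there.

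In the wider window of 500 bp on each side of any TSS, searched in all 42 genes whether open or not, the X-box with up to 2 mismatches was in 33, but also in 58.1% of all protein-coding genes. With up to 1 mismatch it was in 11 (10.5% of all genes) and with none in 2 (1.28%). The wide window thus held a match in most genes of any kind.

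Elements with 1 base between the arms were searched after the first matches were seen. With up to 1 mismatch, 5 of 39 regions matched (1.84% of all open promoters), and with up to 2 mismatches 19 did (15.4%). The 5 were Ift57, with no mismatch (0.276% of all open promoters), and Ift52, Dnah9, Dnai1 and Dnai2. With either spacing and up to 1 mismatch, 11 of 39 matched (28.2%, against 5.75%), 7 of them primary-cilium and 4 motile-cilium genes.

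**Figure D3:**
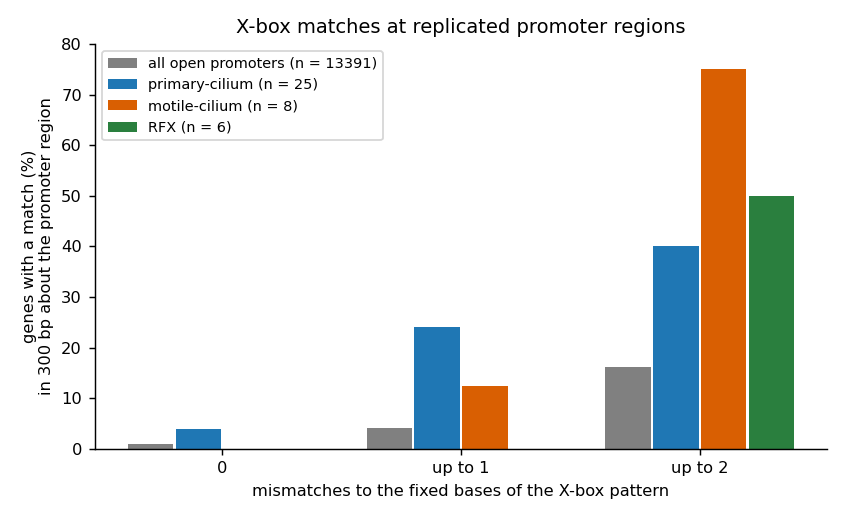
Share of genes with a replicated promoter region that hold an X-box match in 300 bp (vertical axis, percent), by the number of mismatches allowed (horizontal axis), for all such genes (grey) and the 3 classes. With up to 2 mismatches the shares are 16.2% of all open promoters, 40% of primary-cilium, 75% of motile-cilium and 50% of RFX promoters.

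Other genes of the pathway, from lists of genes that are not among the 42, had much the same promoter states. All 16 further IFT and motor genes and all 5 further BBSome-related genes had a replicated promoter region, against 61% of all genes. So did all 15 transition zone genes analysed. The CpG ratios of these lists had medians of 0.6765, 0.7783 and 0.6602, in this order, above the 0.572 of all genes. The part of CpG content in these counts was not tested. Tctn2 is not annotated as protein-coding in GENCODE M21 and was not used. Among 31 further axoneme genes 26 had one, with Dnah3, Dnah12, Dnah17, Spag17 and Ak7 as the exceptions, and 10 of 11 dynein arm assembly factors did, all but Pih1d3. X-box matches with up to 2 mismatches were found in 9 of 16 IFT and motor, 9 of 15 transition zone, 15 of 26 axoneme, 5 of 10 assembly factor and 1 of 5 BBSome-related promoter regions, and in 0 of the 8 open promoters of the midbrain and neuron list. The share of all open promoters was 16.2%, and the BBSome-related count is near it. The 0 of 8 rests on few genes and does not set the midbrain and neuron list apart from all open promoters.

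Of the genes that switch on the multiciliated program, Foxj1, its forkhead regulator, had promoter signals of 125 and 65. Ccno, which promotes centriole amplification, had 127 and 48. Gmnc, at the head of the program, had 67 and 16, and Mcidas had 39 in replicate 1 and no peak in replicate 2. Trp73 likewise had 28 in replicate 1 alone. In all, 5 of 7 such genes were open in both libraries and 7 of 7 in replicate 1, where 61% and 68.9% of all genes were, so the first count is near the share of all genes. Whether ependymal cells account for the open motile-cilium promoters was not tested. Of the other RFX-related genes, Rfxap (108 and 69) and Rfxank (126 and 77), partners of Rfx5, were open, and Rfx6, a pancreatic regulator, had weak but overlapping peaks of 32 and 25. Rfx8 had peaks of 49 and 17 that did not overlap, so that 3 of these 4 genes had a replicated promoter region.

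Away from promoters, 131 distal replicated regions, over 500 bp from any TSS, lay in the domains of the 42 genes, each domain running from 10 kb before the gene to 10 kb after it. At least 1 such region was found for 34 of the 42 genes, against 63.4% of all protein-coding genes. The RFX domains held 27, the motile-cilium domains 57 and the primary-cilium domains 47, with medians of 3.5, 3 and 1 per gene and of 1 over all genes. Domain lengths differ, with medians of 92.9, 88.4 and 57.8 kb against 37.4 kb over all genes. Per 100 kb of domain, the pooled counts were 3.84 for RFX, 3.05 for motile-cilium and 2.39 for primary-cilium genes, against 2.85 over all genes. The motile-cilium value rested on Dnah2, without which it was 2.15, below that of all genes. The medians per gene were 4.48, 1.76 and 2.20, against 2.28 over all genes. By either measure the RFX domains had the densest distal regions of the 3 classes, but Rfx4 alone held 13 of the 27 RFX regions. Single RFX genes ranged from 0.742 (Rfx3) to 7.98 (Rfx1) per 100 kb. The pooled RFX value rested on Rfx4, which had 7.63 per 100 kb. Without Rfx4 it was below the 3.05 of motile-cilium genes and the 2.85 of all genes. Of the 131 regions 88 were intronic, 20 touched an exon and 23 were intergenic, and for 75 the nearest TSS was that of the gene itself. By class this held for 12 of the 27 RFX, 36 of the 57 motile-cilium and 27 of the 47 primary-cilium regions. For Rfx1 it held for 0 of 4, and for Rfx7 for 0 of 3.

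**Figure D4:**
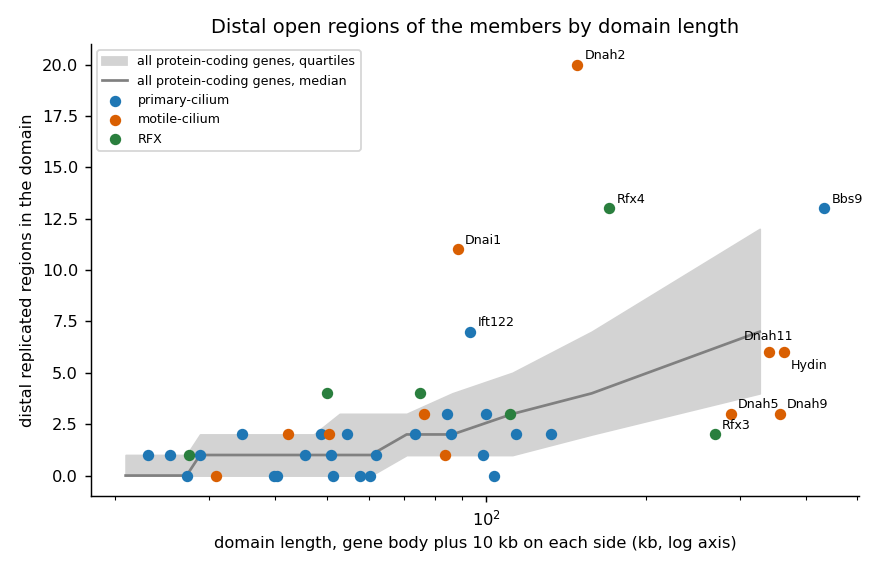
Number of distal replicated regions (vertical axis) against domain length (horizontal axis, kb, log scale) for the 42 genes; the grey line and band are the median and quartiles of all protein-coding genes in bins of equal gene number by length. Dnah2 (20), Rfx4 (13), Dnai1 (11) and Ift122 (7) lie farthest above the band, and Rfx3 (2), Dnah5 (3), Dnah9 (3) and Ift140 (0) lie below it.

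Among primary-cilium genes, Bbs9 had 13 distal regions in a domain of 433 kb, and 12 of them lay inside the gene. Ift122 had 7 in 93.2 kb, and Ift43 and Ift81 had 3 each. No distal region was found for Ift22, Ift140, Ift172, Bbs1, Bbs4, Bbs5 or Bbs7. The strongest primary-cilium site by mean percentile lay at -2992 bp from the TSS of Ift43 (chromosome 12, 86079496 to 86079645), with signals of 112 and 54. Its nearest TSS, that of Tgfb3, was 530 bp away, just past the 500 bp limit for a distal region. The next was inside an intron of Ift43, 50438 bp downstream of its TSS (86132916 to 86133085; 101 and 44).

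Among motile-cilium genes, Dnah2 had 20 distal regions in 148 kb, Dnai1 11 in 88.4 kb, and Hydin and Dnah11 6 each. The 2 strongest sites in this class, at 69418876 to 69419085 (140 and 69) and at 69411236 to 69411385 (135 and 61) on chromosome 11, lay beyond the 3′ end of Dnah2, the latter inside Kdm6b, and were nearest to Kdm6b, a histone demethylase gene. Kdm6b was the nearest gene for 6 of the 20 regions and Dnah2 for 11. Without Dnah2 the motile-cilium count was 37. Although its promoter had no replicated region, open sites lay close to the start of Dnah2: a cluster of 4 intronic regions 1867 to 2997 bp downstream of its TSS had signals of 70 to 109 in replicate 1 and 24 to 53 in replicate 2. Dnah5, whose promoter was also not replicated, had 3 weak intragenic sites (49 to 58, and 12 to 19).

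Among RFX genes, Rfx4 had 13 distal regions in 170 kb, of which 9 lay inside the gene, with signals of 38 to 98 and 11 to 35. For 5 of them Rfx4 was the nearest gene. Rfx1 and Rfx2 had 4 each, and Rfx3, with the longest domain of the family at 269 kb, had 2. The strongest RFX site lay at -1799 bp from the TSS of Rfx7, inside the noncoding gene 4930509E16Rik (chromosome 9, 72530356 to 72530525; 116 and 63). The second was in an intron of Rfx2, 16502 bp downstream of its TSS (114 and 61).

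That Rfx2 site, in a gene for an X-box-binding protein, held X-box-like sequence. Of all distal replicated regions, 14.1% had a match with up to 2 mismatches, and binding was not tested. The 150 bases of the Rfx2 site are shown on the plus strand of mm10, with capitals for 2 X-box matches with 2 mismatches each and for the hexamer GTTGCC.
Rfx2 intronic site (chr17:56814436-56814585): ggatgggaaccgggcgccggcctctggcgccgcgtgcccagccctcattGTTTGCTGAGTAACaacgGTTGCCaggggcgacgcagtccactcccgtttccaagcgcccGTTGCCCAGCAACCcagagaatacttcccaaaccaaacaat

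In the central 150 bp of all distal regions of the 42 genes, the X-box with up to 2 mismatches occurred in 25 of 131, against 14.1% of all 52518 distal replicated regions. With up to 1 mismatch it occurred in 9 of the 131 (5.84% of all), and with none in 3 (1.8% of all). Both of these counts are near the shares of all distal regions. By class, 8 of 27 RFX, 11 of 57 motile-cilium and 6 of 47 primary-cilium regions had a match with up to 2 mismatches. The primary-cilium count is near the share of all distal regions. The 3 exact elements, and another in a site 2487 bp inside Dnah2, are shown on the plus strand, and were chosen after the search because they match most closely. The first lies in an intron of Efnb3, at -8673 bp from the Dnah2 TSS (signals of 92 and 44), the second in an intron of Hydin, 198824 bp from its TSS (80 and 41), and the third overlaps an exon of Ift122 that is untranslated in at least 1 transcript (75 and 33). The Dnah2 intronic site (102 and 53) has 1 mismatch.
Dnah2 upstream, in Efnb3 (chr11:69557772-69557801): ccggtgccGTTGCCATGGCAACaggatgcc
Hydin intron (chr8:110465788-110465817): ctgtgcttGTTACCATGGTAACgatggctt
Ift122 exon (chr6:115891814-115891843): agggtctgGTTGCCGTGGTAACtcacactt
Dnah2 intron (chr11:69546542-69546571): atgcacgcGTCGCCATGGCAACtcggggcc

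A different Rfx2 intronic region, 4132 bp from its TSS (56826796 to 56826965; 39 and 22), held 2 elements with 1 mismatch each. Rfx4 had 1 such element, in an intron 147449 bp from its TSS but nearest to Ric8b (67 and 24), and Rfx1 had 1 in a region touching an exon and nearest to C330011M18Rik (46 and 16). No primary-cilium gene other than Ift122 had a distal element with up to 1 mismatch.

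**Figure D5:**
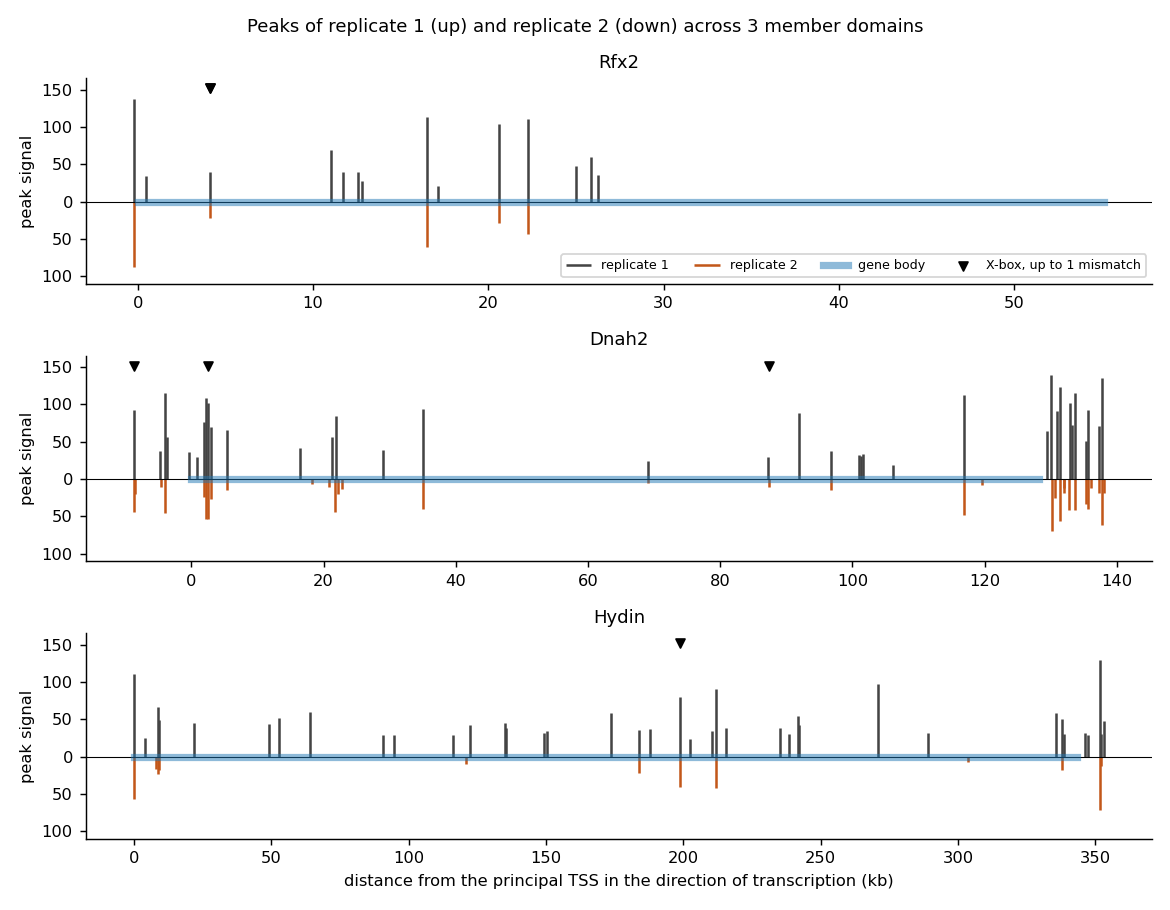
Peaks of replicate 1 (upward lines) and replicate 2 (downward lines) in the domains of Rfx2, Dnah2 and Hydin, with peak signal in the authors' units (vertical axis) against distance from the principal TSS (horizontal axis, kb); the blue bar is the gene body and triangles mark distal X-box matches with up to 1 mismatch. The strong cluster at the right end of the Dnah2 panel is next to Kdm6b, and no tall peak stands at the Dnah2 start site.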

How the data were processed

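DNase-seq libraries of 2 replicates of newborn midbrain were analysed. Peaks were called by the authors for each library from its filtered mm10 alignment, per the text deposited beside the lists; for the aligner and the peak caller, names and versions were not given in the sources used here. The deposited peak signal (unit not defined, 1 to 149) was used only within each list. Hotspots carry a deposited −log10 q value, and a deposited display score that was not used. Of 228440 and 122838 peaks, 215 and 221 off chromosomes 1 to 19, X and Y and 22 and 24 repeats of a position were left out. No interval passed a chromosome end (0).

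Overlapping or touching peaks were merged, giving 74833 replicated regions. Gene models were GENCODE M21, and bases came from RefSeq GRCm38.p6. Promoters were 500 bp on each side of any TSS, and domains added 10 kb on each side. The scripts (Python 3.11.15, pandas 2.3.3, numpy 2.4.6) were tested on simulated data. No test was made between groups, as there is 1. All members are named; values are given for every RFX and motile gene, for the 5 highest and 5 lowest primary genes by mean percentile of promoter signal, and for the 3 genes of each class with the most distal regions. Values of other members were added after they were seen. Members and lists were chosen with earlier results of these data known. Alternatives covered windows, overlap, peak strength, hotspots, single libraries and motif mismatches.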

Additional observations from a re-analysis of the deposited data

How the results depend on the processing

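The promoter counts moved little. Over all their alternatives the primary-cilium count was 24 or 25 of 25, the motile-cilium count 8, 9 or 11 of 11, and the RFX count 5 or 6 of 6; the highest motile-cilium count came from replicate 1 alone. The share of all genes ran from 55.4% to 68.9%. The 5 RFX genes were found with a 100 bp window.

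Counts of distal regions depended on the domain and on the list. In gene bodies alone they were 31 for primary-cilium and 17 for RFX genes, and with 50 kb on each side 112 for primary-cilium, 105 for motile-cilium and 41 for RFX genes. With the stronger 50% of peaks they were 25 for primary-cilium and 15 for RFX genes. Leaving out each replicate in turn gave 83 to 154 primary-cilium, 93 to 187 motile-cilium and 36 to 95 RFX regions, because a single list then needs no partner. Without Dnah2, a setting chosen after seeing the data, 37 motile-cilium regions were left.

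X-box matches at promoters fell from 19 to 7 with up to 1 mismatch and 1 with none, and rose to 33 within 500 bp of any TSS, where 58.1% of all genes had one. With a spacer of 1 base, and with a spacer of 1 or 2 bases, both with up to 1 mismatch and chosen after seeing the data, they numbered 5 and 11. Without genes that have a head-to-head neighbour, 17 of 29 matched. Of 74 alternative values, 56 stayed within 1.5 times. The 18 that moved were all counts of distal regions or of X-box matches. The primary-cilium and RFX promoter counts already stood at their highest possible values and could not rise, so the total says little about how stable they are.

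No paired analysis was possible because the labels give a single group. Read depth is unknown, so a missing replicate 2 peak (Dnah2, Dnah5) does not show a closed site.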
